A study of Mus musculus with 10 samples.

Results

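The loci of 4 genes for transcription factors of early fat cell formation are described here: Nr3c1, which encodes the glucocorticoid receptor, Stat5a and Stat5b, which lie side by side, and Rxra, which encodes retinoid X receptor alpha. Their members are the DNase I hypersensitive (DHS) sites that overlap 3 windows of the mouse mm9 genome by at least 1 bp, and the footprints inside those sites. The windows are chr18:39470000-39750000 for Nr3c1, chr11:100540000-100850000 for Stat5a with Stat5b, and chr2:27430000-27720000 for Rxra. They hold 72 of 129028 DHS sites (0.0558%) and 388 of 329076 footprints (0.118%). The Nr3c1 window has 18 sites and 86 footprints, the Stat5a-Stat5b window 26 sites and 142 footprints, and the Rxra window 28 sites and 160 footprints. No site crosses the edge of a window.

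The cells were 3T3-L1 pre-adipocytes, an established mouse fibroblast line that can be driven to become fat cells. They were kept in medium with 10% calf serum and, once confluent, received a cocktail of 1 µM dexamethasone (a synthetic glucocorticoid), 0.5 mM 3-isobutyl-1-methylxantine (as the labels spell it, a phosphodiesterase inhibitor that raises cyclic AMP), 1 µg/mL insulin and 10% FCS. Nuclei were taken 4 h later and cut with DNase I, and the 2 DNase samples are further sequencing of 1 library that the authors combined with their earlier reads of it. The labels also list 8 RNA-seq samples, 4 groups of 2, of cells with lentivirus for an shRNA to C/EBPβ or to a scrambled sequence, harvested at 0 h or 4 h, which are not analysed here.

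DNase I cuts DNA that is free of tightly packed nucleosomes, so runs of frequent cutting mark promoters, enhancers and other regulatory DNA. A footprint is a short stretch within such a site that is cut less often than its surroundings, as occurs where a protein lies on the DNA. The glucocorticoid receptor is a nuclear receptor that enters the nucleus when it binds a glucocorticoid such as dexamethasone. STAT5A and STAT5B are closely related factors that are phosphorylated by Janus kinases downstream of growth hormone, prolactin and cytokine receptors, and dimers of them bind DNA. RXRα pairs with other nuclear receptors, among them PPARγ, the main regulator of fat cell formation. In early adipogenesis these factors and C/EBPβ bind many of the same open regions, often called hotspots. The values below describe the chromatin around the genes for these factors, and say nothing of where the proteins themselves bind.

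The lists give positions without bases, and an mm9 sequence was not used here, so the bases of the sites and footprints are not shown. What can be shown of these genes' regulatory DNA is the RefSeq promoter sequence on GRCm38.p6, a later build whose coordinates cannot be set against the mm9 positions of the lists. Promoters of 3 of the 4 genes were taken, 2 for each of Stat5a, Stat5b and Rxra, and Nr3c1 was not searched. The 250 bases before each annotated start were searched on both strands for 6 motifs. The second promoters of Stat5a (chr11:100860234-100860483, + strand) and Stat5b (chr11:100822571-100822820, - strand) share a stretch of 55 bases in which 49 (89.1%) are the same. It ends 11 bases before the start in Stat5a and 2 bases before it in Stat5b. The shared stretch is the best match without gaps between these promoters, the only pair compared, and is shown with the 6 differing bases in capitals:
Stat5a: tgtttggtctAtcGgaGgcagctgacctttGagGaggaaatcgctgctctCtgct
Stat5b: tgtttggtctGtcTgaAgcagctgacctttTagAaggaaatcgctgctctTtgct

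Both stretches hold the letters TGACCT, the reverse complement of AGGTCA, the element that receptors pairing with RXR recognise. The second Rxra promoter (chr2:27709042-27709291, + strand) holds that element in both orientations, as TGACCT from base 164 and AGGTCA from base 203, counted from 1 at the 5′ end. It is shown whole, with both matches in capitals:
Rxra: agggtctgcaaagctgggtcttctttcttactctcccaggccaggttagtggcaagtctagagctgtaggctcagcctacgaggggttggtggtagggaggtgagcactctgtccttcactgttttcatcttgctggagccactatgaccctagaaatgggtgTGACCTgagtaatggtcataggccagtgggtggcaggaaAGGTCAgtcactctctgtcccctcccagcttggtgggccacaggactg

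Either orientation of AGGTCA occurs in 14% of the 32851 promoters of the table, so a match is common. The first Stat5a promoter held 1 as well, and the first promoters of Stat5b and Rxra held none. The letters GGGCGG (or CCGCCC), which Krüppel-like factors and Sp1 recognise, were found 3 times in each of the first promoters of Stat5b and Rxra and 2 times in the second Stat5a promoter, and they occur in 32.7% of all promoters. The first promoters of Stat5b and Rxra were also rich in G and C, at 82% and 81.2%, against a median of 52.4% over all promoters. None of the 6 promoters held AGAACA or TGTTCT (in 16.1% of all promoters), TTGCNNCAA or its complement TTGNNGCAA (1.74%), TGANTCA (6.75%) or TTCNNNGAA (7.02%). Whether any listed DHS site lies on these promoters was not tested, as the builds differ.

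Open chromatin was denser in all 3 windows than along their chromosomes. The Rxra window had 9.66 DHS sites per 100 kb, against 5.50 per 100 kb between the first and last site of chromosome 2. The Stat5a-Stat5b window had 8.39 per 100 kb, against 5.11 on chromosome 11. The Nr3c1 window had 6.43 per 100 kb, against 4.58 on chromosome 18. DHS sites covered 7.66%, 6.02% and 5.26% of the Rxra, Stat5a-Stat5b and Nr3c1 windows in turn, and 3.49%, 3.60% and 2.79% of the 3 chromosomes.

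Stretches of the same length elsewhere give a scale for these counts. When the genome was laid out in tiles as long as each window, 26.5% of 9196 tiles of 280 kb had at least the 18 sites of the Nr3c1 window. At least the 26 sites of the Stat5a-Stat5b window were found in 7.29% of 8303 tiles of 310 kb. At least the 28 sites of the Rxra window were found in 3.50% of 8867 tiles of 290 kb. For footprints the shares were 12.8% of tiles for the 86 of the Nr3c1 window, 4.83% for the 142 of the Stat5a-Stat5b window and 2.71% for the 160 of the Rxra window. The windows were set around named genes, while most tiles are not centred on genes, so these shares describe their place in the list and are no test.

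**Figure D1:**
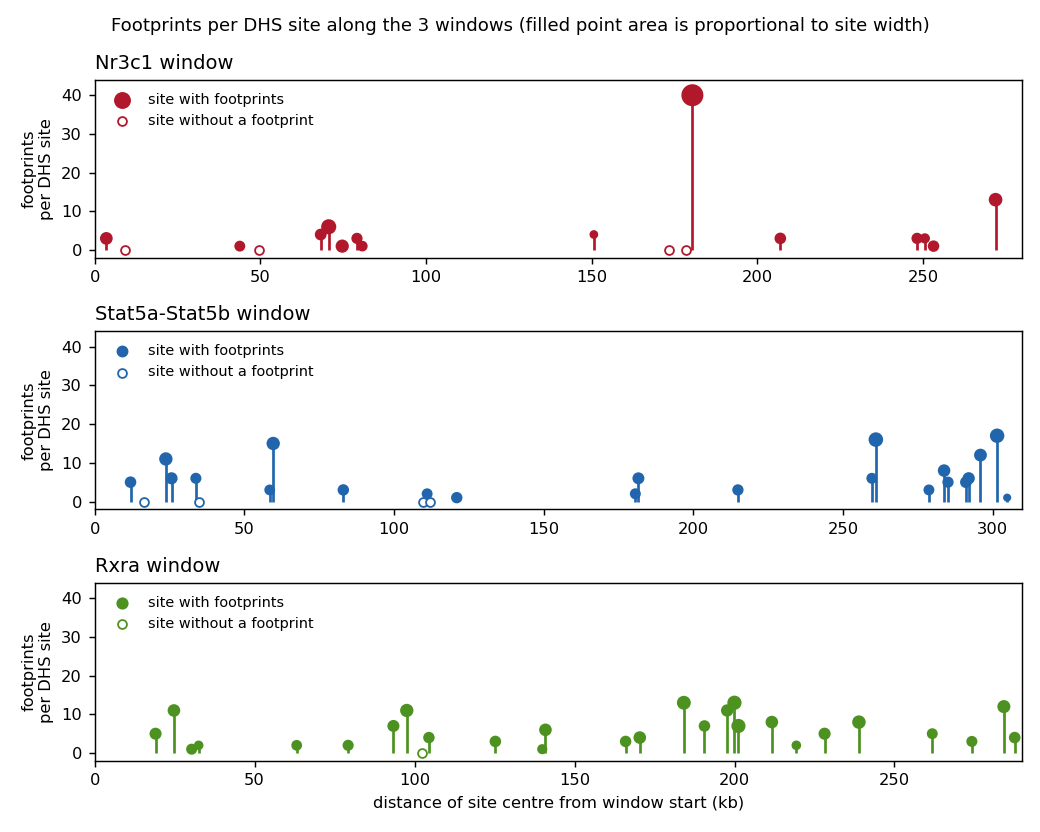
Footprints per DHS site (vertical axis) against the distance of the site's centre from the start of its window in kb (horizontal axis), for the Nr3c1 (18 sites), Stat5a-Stat5b (26 sites) and Rxra (28 sites) windows. Filled points are sites with footprints, with area in proportion to site width, and open points are sites without one. One Nr3c1 site carries 40 footprints, while no site of the other windows carries more than 17.

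Most member sites carried a footprint. The share was 27 of 28 sites (96.4%, 95% Wilson interval 82.3 to 99.4%) in the Rxra window, 22 of 26 (84.6%, 66.5 to 93.9%) in the Stat5a-Stat5b window and 14 of 18 (77.8%, 54.8 to 91.0%) in the Nr3c1 window. Over the whole list the share was 45.4%, and it was 48.4% on chromosome 2, 60.1% on chromosome 11 and 41.9% on chromosome 18. The intervals cover counting error only and treat sites as independent. Those of the 3 windows overlap one another, and no test between windows was made. Sites with 10 or more footprints were 6 of 28 (21.4%) in the Rxra window, 5 of 26 (19.2%) in the Stat5a-Stat5b window and 2 of 18 (11.1%) in the Nr3c1 window, against 7.88% of the list.

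Member sites were also wider than most, and in the list wide sites hold more footprints than narrow ones. The median width was 767 bp in the Rxra window, 697 bp in the Stat5a-Stat5b window and 681.5 bp in the Nr3c1 window, against 532 bp over all sites. In the list, sites of the same widths carried a footprint in 76.1%, 67.6% and 62.0% of cases for the 3 windows in turn. All 3 observed shares were above these values. The value for Rxra lies below the interval of that window, and the values for Stat5a-Stat5b and Nr3c1 lie inside theirs.

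Footprint numbers were compared with width in the same way. Each site was given the mean number of footprints of its class among 50 classes of width over the whole list. The Stat5a-Stat5b window had 142 footprints where its widths gave 89.9, a ratio of 1.58 (95% exact Poisson interval 1.33 to 1.86). The Rxra window had 160 where widths gave 117.3, a ratio of 1.36 (1.16 to 1.59). The Nr3c1 window had 86 where widths gave 73.3, a ratio of 1.17 (0.939 to 1.45), and its interval includes 1. These intervals cover counting error only and treat footprints as independent, although neighbouring footprints share a site. Chromosome 11 as a whole had a ratio of 1.14, chromosome 2 of 1.02 and chromosome 18 of 0.889. The expected number was also taken from the same chromosome, in fewer and broader classes of width. The ratio was then 1.26 for the Stat5a-Stat5b window, 1.23 for the Rxra window and 1.45 for the Nr3c1 window. The order of the windows thus differed, and the changes of chromosome and of classes were not separated.

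**Figure D2:**
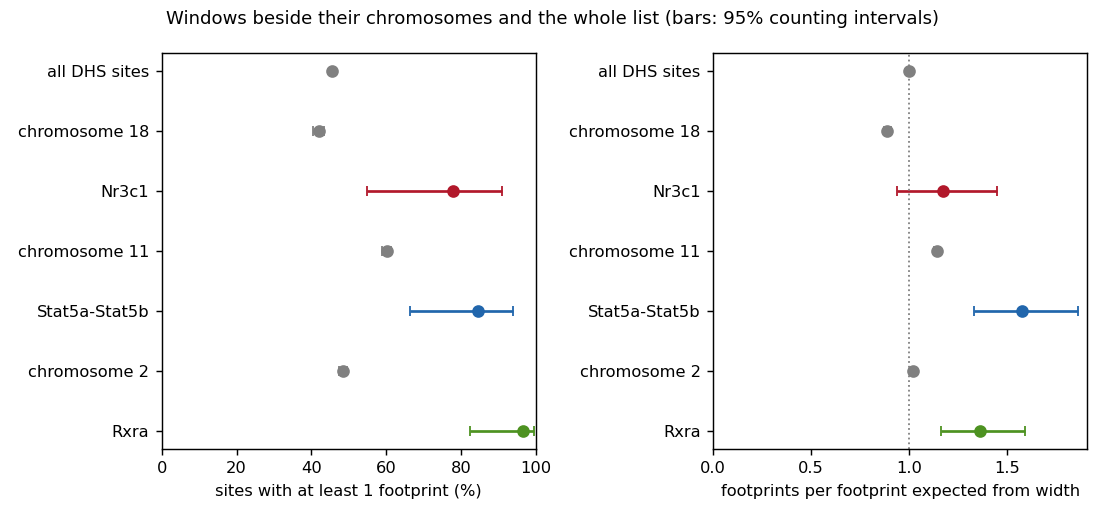
Left, percent of DHS sites with at least 1 footprint, with 95% Wilson intervals. Right, footprints per footprint expected from site width, with 95% exact Poisson intervals and a dotted line at 1. The rows are the whole list, the 3 windows (coloured) and their chromosomes (grey). The windows' shares run from 77.8% to 96.4%, against 45.4% in the whole list.

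Many sites of the Stat5a-Stat5b and Rxra windows, but few of the Nr3c1 window, had more footprints than their width class. The mean of the class was passed by 21 of 28 Rxra sites (75%), 17 of 26 Stat5a-Stat5b sites (65.4%) and 6 of 18 Nr3c1 sites (33.3%), against 29.9% of all sites in the list. The Nr3c1 share is thus near that of the list, which covers sites of all widths and was not matched to the wider member sites. Without its richest site the Nr3c1 window had 46 footprints and a ratio of 0.865 (0.633 to 1.15). Without theirs, the Stat5a-Stat5b window kept a ratio of 1.55 and the Rxra window of 1.36. Of the footprints of each window, the richest site held 46.5% in Nr3c1, 12% in Stat5a-Stat5b and 8.13% in Rxra.

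**Figure D3:**
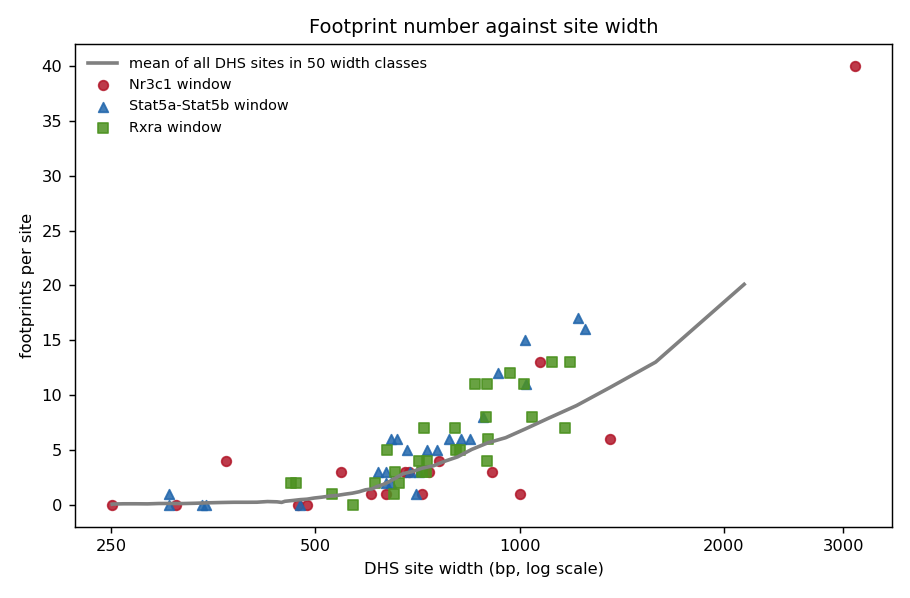
Footprints per site against site width (bp, log scale) for the member sites of the 3 windows, with the mean of all DHS sites in 50 width classes as a grey line drawn at the median width of each class. Most Stat5a-Stat5b and Rxra sites lie above the line, and 6 of the 18 Nr3c1 sites do, among them the site of 3125 bp with 40 footprints.

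At the Nr3c1 window, footprints were concentrated in a site of 3125 bp at chr18:39648834-39651958. It held 40 of the 86 footprints, a number that 159 sites of the list (0.123%) reach. Among the 236 sites within 10% of its width the median was 25.5 footprints (interquartile range 16 to 35), and 39 of them (16.5%) had 40 or more. Its footprints covered 25.7% of its bases and ran over 2345 bp, from 39649353 to 39651697.

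Within this site the footprints formed 4 groups when divided at gaps over 150 bp, a distance chosen after the gaps were seen. The first group had 10 footprints over 492 bp, the second 3 over 138 bp, the third 13 over 448 bp and the fourth 14 over 594 bp. Gaps of 297, 186 and 190 bp lay between them. Footprints covered 59.8% of the third group and 38.4% of the first. The authors' score, taken here as stronger the more negative it is, had a median of -3.87 in the first group, -4.00 in the second, -4.69 in the third and -4.76 in the fourth. The strongest footprint of the window lay in the fourth group, 28 bp at chr18:39651361-39651388 with a score of -10.6. Of the 40 footprints, 13 lay before the centre of the site and 27 after it, and 11 of the 39 gaps between neighbours were under 10 bp.

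The other sites of the Nr3c1 window held few footprints, with a median of 3. The second richest site, at chr18:39741352-39742424 (1073 bp), lay near the far end of the window and had 13 footprints with a strongest score of -7.99. It held 12 of them within 486 bp, and 5 near its centre had scores from -7.29 to -7.99. The third, at chr18:39539968-39541326, was wider at 1359 bp but had 6, fewer than the mean of 10.7 for its width class. The site of 1001 bp at chr18:39544225-39545225 had 1 footprint, where 90.2% of its class had at least 1 and the class median was 7. In contrast, the narrow site of 369 bp at chr18:39620479-39620847 had 4 footprints, more than 99.1% of its class, although its strongest score was only -3.94. A site of 761 bp at chr18:39537851-39538611 also had 4.

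Sites without a footprint numbered 4 in the Nr3c1 window, and all 4 were narrower than 500 bp. In the list, 4.68% to 28.5% of the sites in their width classes had a footprint, so lacking one was usual. The widest of the 4, 486 bp at chr18:39648150-39648635, lay 198 bp before the site with 40 footprints. The next was 471 bp at chr18:39643147-39643617, and the third 312 bp at chr18:39479124-39479435. The longest stretch without a DHS site was 69.4 kb, from 39551082 to 39620478, between a cluster of 5 sites and the narrow site with 4 footprints. That cluster, at chr18:39537851-39551081, spanned 13.2 kb and had more sites than any other of the 8 clusters formed by joining sites 12500 bp or less apart. It held 15 footprints, 0.589 of the 25.5 expected from width, while the cluster of 3 sites around the widest site held 40. In the RefSeq order the genes before Nr3c1 are Fgf1, Gm5820 and Arhgap26, and those after it are Pabpc2, Yipf5 and Kctd16. Sites of the Nr3c1 window were not assigned to genes, so some may belong to these neighbours.

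At the Stat5a-Stat5b window the sites lay mainly toward both ends. In the RefSeq order the protein-coding genes before Stat5b are Kcnh4, Hcrt and Ghdc, and those after Stat5a are Stat3, Cavin1 and Atp6v0a1. Stat3 encodes another STAT factor, and Cavin1 a coat protein of caveolae that is abundant in fat cells. Gene positions on mm9 were not used here, so sites in the window may belong to these neighbours and none is assigned to a gene. The cluster with the most sites, chr11:100818436-100845045, had 8 sites over 26.6 kb. It ended less than 12500 bp before the edge of the window, so it may run on past that edge. All 8 carried footprints, 57 in all (40.1% of the window's), which was 1.65 times the number expected from width.

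The richest Stat5a-Stat5b site, chr11:100840928-100842148 (1221 bp), belonged to that cluster and had 17 footprints. Among 5089 sites within 10% of its width the median was 9, and 9.94% had 17 or more. Its footprints lay in 1 run of 692 bp, 12 before the centre and 5 after it, and the strongest was -11.3. The fourth richest site, chr11:100835510-100836438, lay in the same cluster and had 12 footprints within 338 bp, with a median gap of 6 bp between neighbours. Gaps were wider in the fifth, chr11:100563296-100564317, whose 11 footprints had a median gap of 21 bp.

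The strongest footprints of the 3 windows lay in the second richest Stat5a-Stat5b site, chr11:100800394-100801641 (1248 bp). It had 16 footprints in 485 bp that covered 54.2% of that run, and all 16 were in the stronger 50% of the list. Footprints of -17.8 (27 bp at chr11:100801060-100801086) and -16.2 (15 bp at chr11:100800915-100800929) were the only 2 members in the strongest 1% of finite scores, which begins at -13.3. In the whole list 1242 footprints had a finite score as strong as -17.8. A site 382 bp before it, at chr11:100799366-100800011, added 6 footprints. The third richest site, chr11:100599162-100600181 (1020 bp), had 15 footprints, more than 95.9% of its width class, and a strongest score of -11.0.

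Between the ends the Stat5a-Stat5b window was sparse. A stretch of 59.0 kb, from 100661348 to 100720341, held no site. The 4 sites just before it, within chr11:100649416-100661347, had 3 footprints together, 0.523 of the 5.73 expected from width. After it came a pair 304 bp apart with 2 footprints at chr11:100720342-100720987 and 6 at chr11:100721292-100722079. A site with 3 footprints, chr11:100754594-100755283, stood alone further on. The widest of the 4 sites without a footprint were 475 bp (chr11:100651876-100652350), 345 bp (chr11:100574806-100575150) and 340 bp (chr11:100556278-100556617). In the list, 8.76% to 25.9% of the sites in the width classes of these 4 had a footprint.

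Sites in the Stat5a-Stat5b window often came in close pairs. A gap under 1 kb separated 8 of 25 neighbouring pairs (32%), against 12.7% of neighbouring pairs in the list. The narrowest gap was 115 bp, before chr11:100831609-100832453. The same count was 2 of 17 (11.8%) in the Nr3c1 window and 2 of 27 (7.41%) in the Rxra window. In the Rxra window the narrowest gap was 74 bp.

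At the Rxra window, footprinted sites were spread along the whole 290 kb without one that dominated. The longest stretch without a site was 30.1 kb, from 27462752 to 27492857. The 3 richest sites held 23.8% of the footprints, against 33.8% in the Stat5a-Stat5b window and 68.6% in the Nr3c1 window. In the RefSeq order the protein-coding neighbours are Brd3os, Brd3 and Wdr5 before Rxra and Col5a1, Fcnb and Olfm1 after it. Brd3 encodes a reader of acetylated histones, Wdr5 a subunit of histone H3 methyltransferase complexes and Col5a1 a fibrillar collagen chain. As above, sites were not assigned to genes.

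The Rxra cluster with the most sites ran over 55.8 kb, chr2:27613611-27669412. It held 9 sites, each with 2 or more footprints, a number reached by 34.7% of all sites in the list. Its 74 footprints were 46.3% of the window's and 1.43 times the number expected from width. Both richest sites belonged to it, chr2:27629390-27630574 (1185 bp) and chr2:27613611-27614727 (1117 bp), each with 13 footprints. Only 74 bp after the first of these began another wide site, chr2:27630649-27631814, which had 7 footprints where the mean of its class was 9.04.

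The arrangement inside those sites differed. In the site at 27629390, 12 of the 13 footprints formed a run of 484 bp with a median score of -5.83 and a strongest of -9.12. In the site at 27613611, 11 formed a run of 408 bp and the remaining 2 lay 255 bp beyond it. That run held the strongest Rxra footprint, -12.6 over 23 bp at chr2:27614109-27614131. The run also held footprints of -10.2 and -9.38, and weak ones down to -3.57. The 2 outlying footprints had scores of -3.55 and -3.88.

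The other sites named for their footprint number were chr2:27713710-27714677 with 12, chr2:27527062-27528076 with 11 and chr2:27454347-27455242 with 11. The last was 896 bp wide, and its footprints covered 25.7% of it with a strongest score of -9.27. A site at chr2:27627279-27628137 also had 11 but was narrower, at 859 bp. Even narrow Rxra sites carried footprints, as the sites of 461 bp (chr2:27462291-27462751) and 468 bp (chr2:27649096-27649563) had 2 each, where the class median was 0. The only Rxra site without a footprint was 568 bp wide, at chr2:27532123-27532690, and 47.6% of its width class had one.

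**Figure D4:**
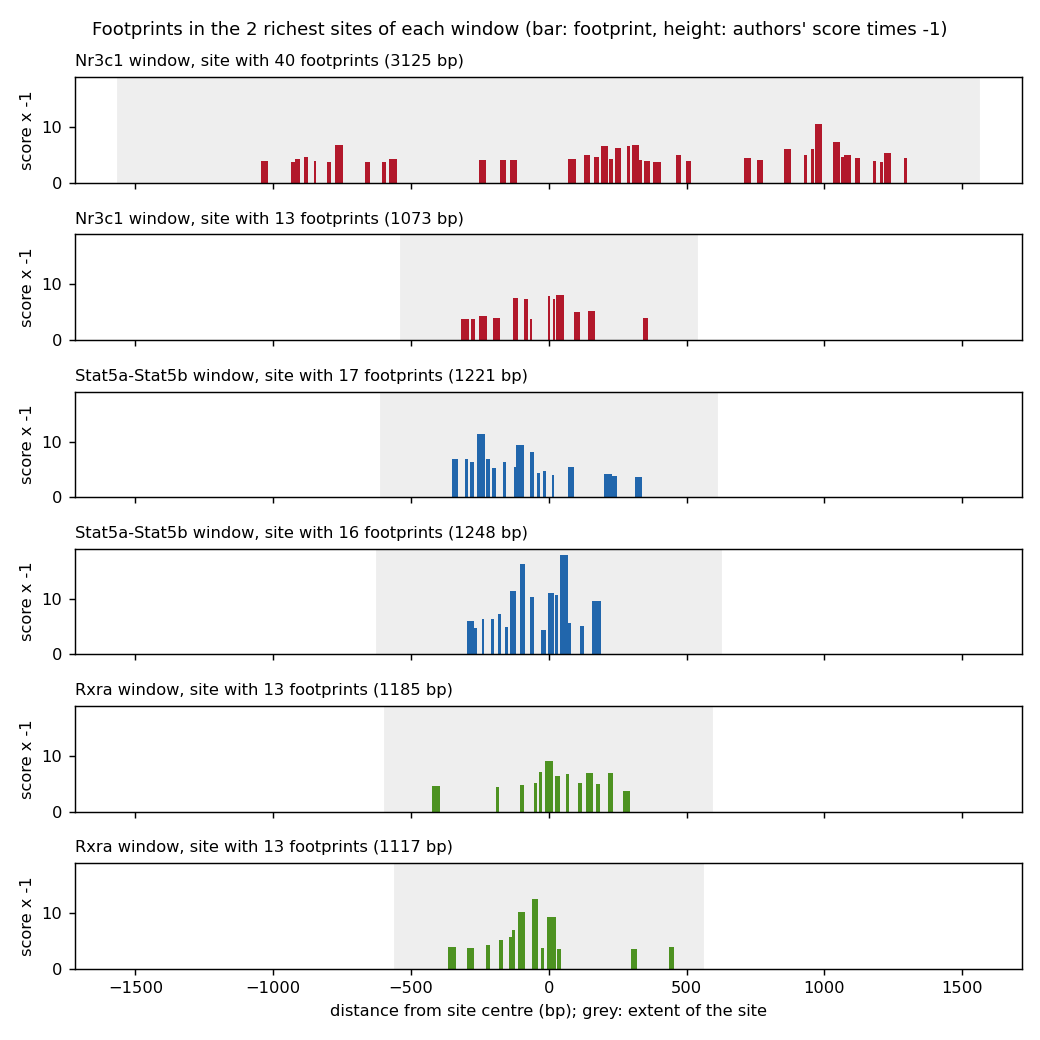
Footprints in the 2 richest sites of each window, by distance from the centre of the site in bp (horizontal axis) and the authors' score times -1 (vertical axis, taller is stronger). Bars span the footprints and grey marks the extent of the site. The Stat5a-Stat5b site of 1248 bp holds the tallest bars, up to 17.8, and the footprints of the 3125 bp Nr3c1 site extend over 2345 bp.

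The individual footprints of the 3 windows were set beside those of the list in size and spacing. Their median width was 21.5 bp in the Nr3c1 window, 18 bp in the Stat5a-Stat5b window and 21 bp in the Rxra window, against 21 bp in the list. The maximum width of 30 bp was reached by 14.0%, 7.75% and 8.13% of them, against 11.6% of all footprints. Gaps under 10 bp made up 23.6%, 27.5% and 24.8% of the gaps between neighbours in a site, near the 24.4% of the list. The median gap was 20 bp in the Nr3c1 window, 16.5 bp in the Stat5a-Stat5b window and 25 bp in the Rxra window, against 20 bp in the list. The central 50% of a site's width held 74.4% of the footprints in the Nr3c1 window, 93.0% in the Stat5a-Stat5b window and 85% in the Rxra window, against 83.2% in the list. The Nr3c1 value rests largely on the site of 3125 bp, which held 40 of the 86 footprints. Of those 40, 10 lay in the last of 5 equal parts of that site, outside its central 50%. The value for the other Nr3c1 sites was not taken separately.

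The authors' scores were lowest, that is strongest, in the Stat5a-Stat5b window by their median. The median score was -4.77 (interquartile range -5.81 to -3.93) in the Stat5a-Stat5b window, -4.42 (-5.21 to -3.91) in the Rxra window and -4.20 (-4.97 to -3.82) in the Nr3c1 window, against -4.38 for finite scores in the list. The stronger 50% of the list included 85 of 142 Stat5a-Stat5b footprints (59.9%), 83 of 160 Rxra footprints (51.9%) and 34 of 86 Nr3c1 footprints (39.5%). Scores of -10 or lower were given to 8 (5.63%), 2 (1.25%) and 1 (1.16%) of them in turn. Together these were 2.84% of the 388, against 2.95% of finite scores in the list. Of the 8 in the Stat5a-Stat5b window, 6 lay in the site at 100800394. None of the 388 had a score of -Inf, the value of 496 footprints in the list.

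No read counts accompany the lists, so the depth behind each site and footprint is unknown. A site that is cut more often allows more footprints to be called, and cutting and protein occupancy cannot be told apart from these values. The lists come from 1 library without replicates, so no difference between windows could be set against variation between cultures.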

How the data were processed

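Both lists were made by the authors from DNase I cuts in 3T3-L1 nuclei at 4 h, with DNA of about 100 to 150 bp sequenced, per the labels' protocols. HOMER and the build mm9 are named for the DNase samples, per the submitters' processing notes. Footprint caller, versions and tool roles remain not given in the sources used here. Only positions stand in the deposited DHS list. The deposited footprint list adds a score headed as a p-value, all below 0, whose scale and log base are not given, so it was used only for ranking. Both DNase samples were pooled by the authors, so there are no replicates and no test was made.

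Both lists were read as BED, so 1 was added to every start and printed positions count from 1. A footprint belonged to a site it overlapped by at least 1 bp, and all 329076 lay fully inside a site. Expected numbers came from 50 classes of site width, the widest of which runs from 1793 to 13152 bp. Those taken from the same chromosome came from fewer and broader classes. Clusters joined sites 12500 bp or less apart within a window, so one near an edge may be cut short. Tiles lay between each chromosome's outermost sites. Named in each window are the 5 sites with the most footprints, the 3 widest without one, the cluster with the most sites and the strongest footprint. Other sites were chosen for mention with their values in view. The windows and lists were chosen with earlier results of these data known. Motifs in footprints and sites near other genes of these pathways were not examined, since an mm9 sequence and annotation were not used here. Only the counting of footprints per site and the ratio to the number expected from width were run on simulated data. Python 3.11.15, numpy 2.4.6, pandas 2.3.3, scipy 1.17.1 and matplotlib 3.10.9 were used.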

Additional observations from a re-analysis of the deposited data

How the results depend on the processing

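No paired analysis was possible because the DNase runs of 1 library were pooled before calling, and leaving out replicates in turn was likewise not possible. Of 81 values under alternatives, 63 stayed within 1.5 times the count or within the counting interval and 18 moved. Counts can only fall or stay where a setting takes away sites or footprints. Footprinted shares can likewise only fall or stay where footprints are taken away. The tally thus depends on the settings chosen and is no measure of robustness. A change of direction was not scored separately. The Nr3c1 ratio to the number expected from width, 1.17, fell below 1 with the stronger 50% of footprints and without the richest site. Of the 63, 18 could not change, since no site crosses a window edge and they only required a site to lie at least 50% or fully inside its window. Taking the stronger 50% of footprints gave shares of sites with a footprint of 33.3% (Nr3c1), 65.4% (Stat5a-Stat5b) and 75% (Rxra), footprint numbers of 34, 85 and 83, and ratios to the number expected from width of 0.904 for Nr3c1 and 1.93 for Stat5a-Stat5b. The wider 50% of sites gave shares of 100% for both Nr3c1 and Stat5a-Stat5b and 96% for Rxra. The share over all sites was not taken for the wider 50% of sites or for the stronger 50% of footprints. The 45.4% of the full list is thus no scale for those shares. Expected numbers from the same chromosome, in fewer and broader classes of width, gave ratios of 1.45 for Nr3c1 and 1.26 for Stat5a-Stat5b. Shortening the Stat5a-Stat5b window by 10% at each end left 15 sites and 66 footprints. Without its richest site, an alternative chosen after the data were seen, as was the comparison with sites within 10% of the same width, the Nr3c1 window had 46 footprints and a ratio of 0.865. Joining Rxra sites at 5 kb gave 17 clusters and at 20 kb gave 5, against 9.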

Other observations

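The stretches next to the windows, each as long as its window, gave these values. Around the Nr3c1 window there were 17 sites with 48 footprints before it and 21 sites with 38 footprints after it, and the ratio to the number expected from width was 0.891 and 0.798. A footprint was present in 12 and 8 of those sites. Around the Stat5a-Stat5b window there were 16 sites with 123 footprints before it and 31 sites with 152 footprints after it, with ratios of 1.40 and 1.23. Of those sites, 13 and 29 had a footprint. The share after the window, 93.5%, was above the 84.6% inside it. Around the Rxra window there were 21 sites with 95 footprints before it and 15 sites with 62 footprints after it, with ratios of 1.08 and 1.34. Of those sites, 16 and 10 had a footprint. The footprinted shares of all the other stretches lay below those of their windows. The ratio inside each window was 1.17, 1.58 and 1.36 in the same order, above that of both of its neighbouring stretches. Without its richest site the Nr3c1 ratio was 0.865, below the 0.891 of the stretch before it. The ratio of the stretch before the Stat5a-Stat5b window lay inside that window's counting interval (1.33 to 1.86), and so did that of the stretch after the Rxra window (1.16 to 1.59).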
